A study of Mus musculus with 2 samples.

Results

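The genes described here encode the isoforms of 4 enzymes that break down glycogen and glucose: glycogen phosphorylase (Pygm, Pygb, Pygl), phosphofructokinase (Pfkm, Pfkl, Pfkp), phosphoglycerate mutase (Pgam2, Pgam1) and enolase (Eno3, Eno1). They were taken by name, as the probe sets that the platform annotation pairs with exactly 1 of these genes. Of the 10 genes, 9 had such a probe set, out of 19938 genes on the array, and together they had 11 probe sets out of 21789. Eno1 was not analysed here.

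RNA came from the fetal ear of BALB/c mice at E18.5, shortly before birth, and each genotype was measured on 1 Affymetrix array. The wild-type array held RNA of BALB/c fetal ear, and the other held RNA of fetal ear of BALB/c mice null for Myf5 and Myod1 (Myf5-/-:MyoD-/-), called the mutant here. Both genes encode myogenic factors, which set embryonic cells on the path to skeletal muscle. The labels name no transgene, treatment or Cre line, and do not state the ear region taken or any pooling of embryos. With 1 array per genotype there is no replicate check and no test, so every difference below compares these arrays.

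Glycogen phosphorylase releases glucose units from glycogen, the store that working muscle draws on. Phosphofructokinase commits the sugar to glycolysis, and phosphoglycerate mutase and enolase carry out later steps towards pyruvate. Each enzyme has a muscle isoform, here Pygm, Pfkm, Pgam2 and Eno3. The other isoforms are named for liver, brain or platelets or found in most cells. Adult muscle and heart both use muscle isoforms, and many fetal tissues run on the widely made ones.

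The short sequence CAGCTG, a palindromic form of the E-box CANNTG, is a well known binding sequence of the MyoD family, so the promoters of the muscle isoforms were set beside those of the other isoforms. The RefSeq table (GRCm38.p6) held windows from 250 bases before to 50 bases after the transcription start for all 10 genes, 15 windows in all. CAGCTG reads the same on both strands, and every match to it is also a match to CANNTG. The stretches before the start are given for Pygm, Eno3 and Pgam2, whose windows held CAGCTG, and for Pgam1, the counterpart of Pgam2, whose window held no E-box. The Eno3 match lay past the start, so the end of its window is shown as well. Capitals mark CAGCTG, and each sequence runs 5′ to 3′ on the gene's strand.
Pygm, chr19:6384158-6384407, plus strand: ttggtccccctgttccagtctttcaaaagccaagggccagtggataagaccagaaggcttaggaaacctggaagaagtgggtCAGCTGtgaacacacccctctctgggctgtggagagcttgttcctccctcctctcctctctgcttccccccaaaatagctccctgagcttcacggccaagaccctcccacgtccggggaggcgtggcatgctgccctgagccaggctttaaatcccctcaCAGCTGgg
Eno3, chr11:70656926-70657175, plus strand: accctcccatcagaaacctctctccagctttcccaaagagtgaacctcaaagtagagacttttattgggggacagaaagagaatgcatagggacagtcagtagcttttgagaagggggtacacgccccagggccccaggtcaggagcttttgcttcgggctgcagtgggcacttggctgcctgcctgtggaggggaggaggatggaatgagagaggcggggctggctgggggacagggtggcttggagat
Eno3, end of window, chr11:70657196-70657225, plus strand: ggtgaactgacactgtccCAGCTGctacct
Pgam2, chr11:5803797-5804046, minus strand: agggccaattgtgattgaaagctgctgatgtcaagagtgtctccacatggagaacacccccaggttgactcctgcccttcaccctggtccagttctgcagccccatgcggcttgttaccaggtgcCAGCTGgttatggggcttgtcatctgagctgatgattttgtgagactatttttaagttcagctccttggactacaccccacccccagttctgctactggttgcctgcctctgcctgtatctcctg
Pgam1, chr19:41911621-41911870, plus strand: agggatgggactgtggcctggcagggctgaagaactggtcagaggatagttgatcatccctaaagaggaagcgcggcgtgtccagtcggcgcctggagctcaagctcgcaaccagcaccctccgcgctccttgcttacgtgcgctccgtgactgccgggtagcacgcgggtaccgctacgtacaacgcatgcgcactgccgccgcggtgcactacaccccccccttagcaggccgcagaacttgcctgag

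The Pygm window held 2 matches to CAGCTG, starting 168 and 8 bases before the transcription start. The Pgam2 window held 1, starting 125 bases before the start, and the Eno3 window held 1, starting 38 bases after it. No CAGCTG lay in any of the 4 windows of Pfkm or in any of the 8 windows of the other isoforms. Some windows of Pfkm overlapped each other, as did some of Eno1, so these are not all separate stretches. Over all 32851 windows of the table, 16.3% held CAGCTG and 1.90% held it at least 2 times. Of the 15 windows of the 10 genes, 3 held CAGCTG, close to the share of all windows. With so few windows, its absence from those of the other isoforms is not a result about them. Any E-box is common, with CANNTG in 72.3% of all windows, and the windows of Pgam2, Pygm and Eno3 held 5, 3 and 2. Pfkm had 3 in the first of its windows, 0 in the second and 1 in each of the others, none of them CAGCTG. The Pfkl window held 3, the first of the 3 Eno1 windows held 2 and the others 0, and the windows of Pygb, Pygl, Pgam1 and Pfkp held 0. A relaxed consensus of the MEF2 factors, searched on both strands (the consensus is its own reverse complement), was found once, 80 bases before the start of Pgam2, and in 3.19% of all windows. These matches describe letters in the windows and are not measurements of binding.

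**Figure D1:**
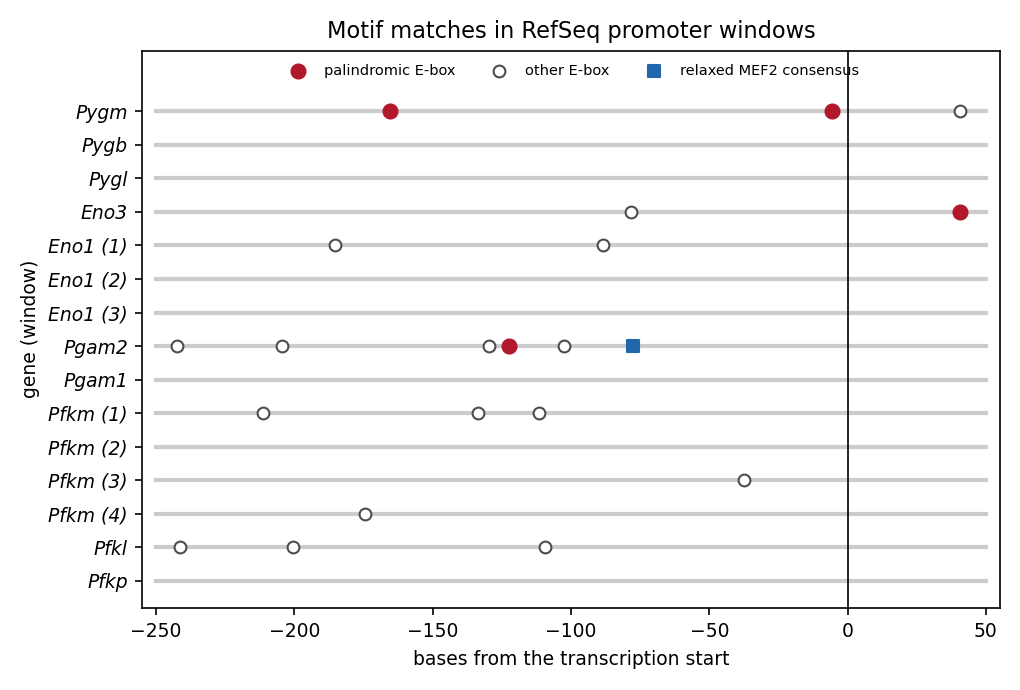
Motif matches in the promoter windows of the 10 genes, with the distance from the transcription start in bases on the horizontal axis and 1 row per RefSeq window. Red points are the palindromic E-box, open points other E-boxes and the blue square a relaxed MEF2 consensus; red points appear only in the rows of Pygm, Eno3 and Pgam2.

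Values are log2 signals on the deposited scale. A floor was set at the median of each array, 5.65 in wild-type ear and 5.70 in mutant ear, and a signal below it was raised to it before a difference was taken. A difference is the mutant's log2 signal minus the wild-type one, and a fold against a value at the floor is written "at least". Of the targeted genes, Myod1 read 6.95 in wild-type ear and 6.38 in mutant ear, and Myf5 read 5.94 and 5.25, the second below the floor; whether these probe sets fall inside the deleted parts was not analysed here, so they are a weak check of the labels.

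In mutant ear the signal of all 4 muscle isoforms was lower by 2-fold or more, 3 of them by at least 17.4-fold, and none of the 5 other isoforms measured was 2-fold lower. Pygl, the liver form of glycogen phosphorylase, was 2.08-fold higher, and the remaining 4 were within 2-fold. All 9 genes lay above the floor in wild-type ear and 8 did in mutant ear. Of the 9, 4 were at least 2-fold lower, against 1.71% of the 12458 genes that passed the floor on 1 or both arrays, and 1 was at least 2-fold higher, against 0.482%. At 1.5-fold the counts were the same, against 3.62% and 2.25% of all genes. At 3-fold, 3 were lower and 0 higher, against 0.963% and 0.128%. The median difference of the 9 genes was -0.06, and that of all 12458 genes was -0.0052. In RNA from whole tissue, fewer cells of a type and less RNA per cell cannot be told apart.

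**Figure D2:**
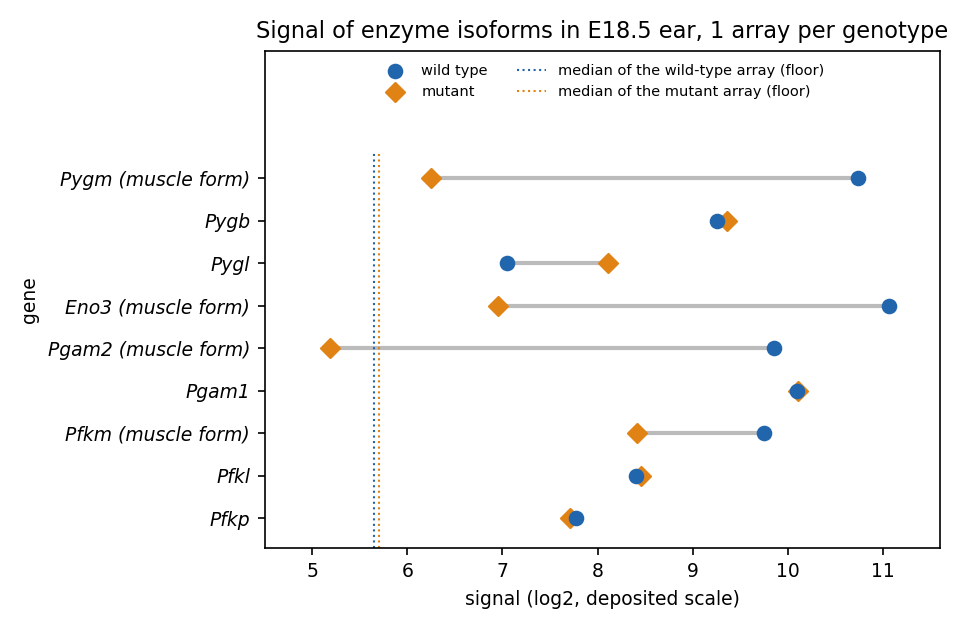
Log2 signal of each isoform in the wild-type ear (circles) and the mutant ear (diamonds), 1 array each, with the floors as dotted lines. Pygm and Eno3 end within 1.25 of the floor and Pgam2 below it, Pfkm stays well above it at 8.42, and Pygl is the gene whose diamond lies clearly to the right; distances between genes are not comparable, since each probe set has its own brightness.

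Pygm (probe set 10460947), the muscle form of glycogen phosphorylase, read 10.74 in wild-type ear and 6.25 in mutant ear. On the linear scale this is a signal of 1713 against 76.2, so the mutant held 4.45% of the wild-type signal, 22.5-fold lower. The remaining signal lay 0.55 above the floor, and a floor at the 75th percentile of each array gave a difference of -3.39 instead of -4.49. This was the 8th lowest difference of the 11626 genes that both arrays measured above their floors. The ranking leaves out 450 genes above the floor only in wild-type ear, some with lower bounds, such as Myh8 at -5.56.

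Eno3 (probe set 10377938), the muscle enolase, read 11.07 in wild-type ear and 6.95 in mutant ear, linear signals of 2147 and 124. The mutant held 5.76% of the wild-type signal, and the difference of -4.12 was the 12th lowest of the same genes. In mutant ear Eno3 still lay 1.25 above the floor.

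Pgam2 (probe set 10384015), the muscle form of phosphoglycerate mutase, read 9.86 in wild-type ear and 5.18 in mutant ear. The second value lay 0.52 below the floor, so the fold is a bound, at least 17.9-fold lower. The difference was -4.16 against this floor, -2.51 against a floor at the 75th percentile and -4.68 with no floor. The wild-type signal was 4.21 above the floor, so the transcript was plainly detected there.

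Pfkm (probe set 10426557), the muscle form of phosphofructokinase, differed least of the muscle isoforms. It read 9.75 in wild-type ear and 8.42 in mutant ear, 2.52-fold lower, and ranked 66th lowest. The mutant kept 39.7% of the wild-type signal, and that signal lay 2.72 above the floor. Pfkm is also made outside skeletal muscle, in brain and other tissues.

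**Figure D3:**
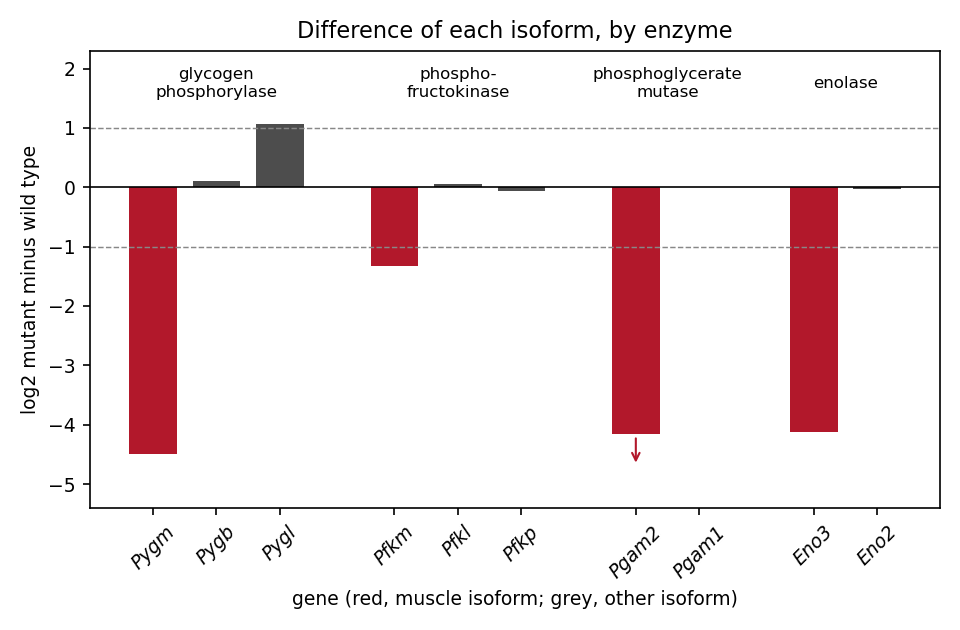
Log2 difference, mutant minus wild type, for each isoform grouped by enzyme; red bars are muscle isoforms, grey bars other isoforms, dashed lines mark 2-fold and the arrow marks a bound. Each enzyme has its lowest bar at the muscle isoform, from -4.49 for Pygm to -1.33 for Pfkm, and Eno2 stands in for the enolase isoform that was not analysed.

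The other isoforms of phosphorylase went 2 ways. Pygb (probe set 10476969), the brain form, which many tissues make, read 9.26 in wild-type ear and 9.36 in mutant ear, a difference of 0.10. Pygl (probe set 10400844) read 7.05 and 8.11, a difference of 1.06. This was the 38th highest of the 11626 genes measured on both arrays, a ranking without the 382 genes above the floor only in mutant ear. It passed 2-fold narrowly, and the call was lost under 2 alternatives: a floor at the 75th percentile gave 0.74 and a pseudocount in place of the floor 0.85. Against the mean of Pygb and Pygl, Pygm had a difference lower by 5.07 on the log2 scale, a change in ratio of 33.6-fold, and the contrast was -3.81 with the higher floor. Against Pygb alone, chosen as a comparison after the values were seen, it was lower by 4.59.

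Markers of several cell types also differed between the arrays on which Pygl did. Among all 12458 genes, 0.482% were at least 2-fold higher and 1.71% at least 2-fold lower, and 50.8% were below 0. Of 10 adipocyte markers 9 lay above the floor, all 9 were higher in mutant ear, and 3 were at least 2-fold higher, with Ucp1 at 1.26 and Fabp4 and Lpl, the other abundant members, at 0.47 and 0.43. The summed linear signal of all 10 was 5060 in wild-type ear and 8783 in mutant ear. All 7 salivary gland markers lay below the floor in wild-type ear and were at least 2-fold higher in the mutant, with sums of 129 and 10670. Of 6 hepatocyte markers 5 had a probe set; Alb, Afp and Tat, which define the cell type, were below the floor on both arrays, and Ttr, bright on both arrays, and Apoa1 differed by -0.14 and 0.24. The 5 hepatocyte probe sets summed to 2336 and 2149. Of 10 myeloid markers 9 lay above the floor and all 9 were lower. Of these, 1 passed 2-fold, Ngp, at least 2.90-fold lower, and the 10 summed to 1974 and 1497. The part of these cell types in the Pygl signal was not tested.

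The other forms of phosphofructokinase were nearly equal on both arrays. Pfkl (probe set 10370376), the liver form, read 8.41 in wild-type ear and 8.46 in mutant ear. Pfkp (probe set 10407481), the platelet form, which brain and other tissues also make, read 7.78 and 7.72. Relative to their mean difference, Pfkm was lower by 1.33, a change in ratio of 2.51-fold. The differences of Pfkl and Pfkp, like those of Pygb and Pgam1, were smaller than 0.168, the standard deviation between probe sets of the same gene over 619 genes. It is a measure of probe noise that holds no variation from animal to animal. Probe sets with identical values were kept in it, which can make it smaller.

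Pgam1, the widely made phosphoglycerate mutase, read 10.10 on both arrays in its brightest probe set (10497321), a difference of 0.0039. Its other 2 probe sets carried identical values, 9.86 in wild-type ear and 9.87 in mutant ear, and are not separate measurements. RefSeq lists pseudogenes of this gene, and signal from such copies could not be told apart from that of Pgam1. Relative to Pgam1, Pgam2 was lower by at least 4.16, or 17.9-fold.

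For enolase, Eno1, the form most tissues make, had no value here, so the planned contrast within this enzyme could not be made. Eno2, the neuronal form, was put in its place after the files had been seen. It read 7.54 in wild-type ear and 7.51 in mutant ear, and relative to it Eno3 was lower by 4.09 on the log2 scale. Of 10 neuron markers, 8 were higher and 2 lower in mutant ear, where 50.8% of all genes were lower. All 10 were within 2-fold, with summed signals of 6039 and 6996. The part of neurons in the values of Eno2 and Pygb was not tested.

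Markers of skeletal muscle fibres differed in the same direction as the muscle isoforms. All 12 were at least 2-fold lower, against 1.71% of all genes, and 8 of the differences are bounds. They ran from -6.46 for Acta1 to at least -3.17 for Ryr1. The summed linear signal of the markers was 25130 in wild-type ear and 483 in mutant ear. The differences of Pygm and Eno3 lay within the range of the markers, and that of Pfkm lay outside it. The floored value of Pgam2 also fell there but is a bound. For the 8 bounds the value is set by how far the wild-type signal lay above the floor, so the range depends partly on probe brightness. The part of muscle tissue content in the values of the muscle isoforms was not tested. Heart also makes muscle isoforms: of 5 cardiac markers, Myh6, Myl7, Nppa and Tnni3 were below the floor on both arrays, and Myl2, which slow skeletal muscle also makes, read 7.12 and 4.25. Of 7 cartilage markers all were within 2-fold, with Col2a1 at 0.05, Acan at 0.05 and Cnmd at 0.21.

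**Figure D4:**
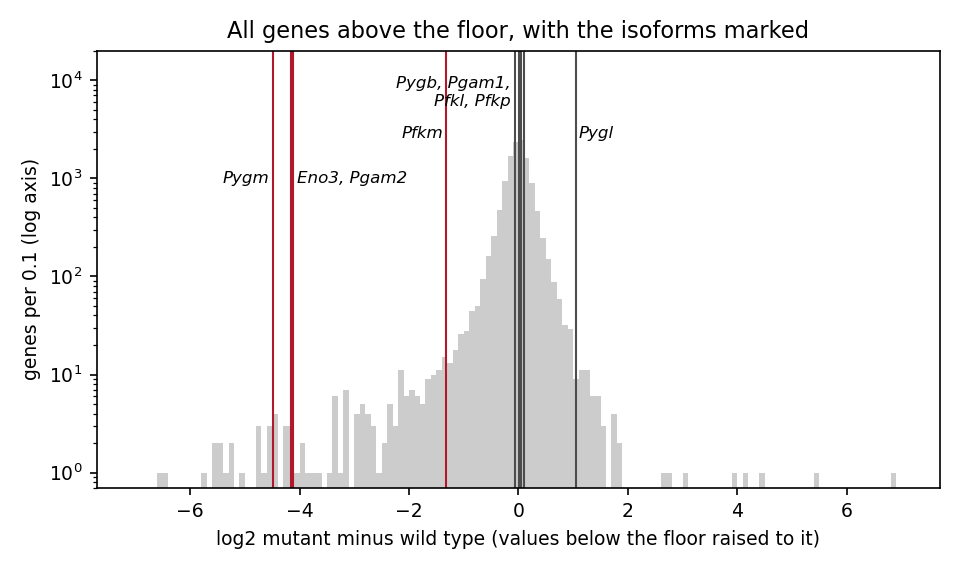
Histogram of the log2 difference of the same 12458 genes, on a logarithmic count axis, with vertical lines at the isoforms (red, muscle isoform; grey, other isoform). Pygm, Eno3 and Pgam2 stand in the sparse left tail, Pfkm at its inner edge at -1.33, and 4 other isoforms in the central peak.

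The genes whose difference lay nearest to each muscle isoform were sought over all genes above the floor, by the gap between log2 differences over only 2 arrays. Where either gene was below the floor in mutant ear its difference is a bound set by the floor, and such a pair has no measured gap. For Pygm the nearest were Des, the intermediate filament of muscle, at a gap of 0.0067, the light chain Myl4 at 0.054 and the Z-disc gene Myoz1, a bound. For Eno3 they were Tpm2, a tropomyosin, at 0.052, and 2 bounds, Pgam2 and Casq2, which encodes a calcium-binding protein. Pgam2 is itself a bound, so the genes at its floored value, Tpm2, Eno3 and Ldb3 (Ldb3 also a bound), are named by the rule alone and have no order. For Pfkm the nearest were Peg10, an imprinted gene, at 0.0047, Pamr1 at 0.0067 and Myog, a myogenic factor, a bound.

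Most other genes of glucose and glycogen metabolism were within 2-fold between the arrays. Of 76 genes in 4 lists, 59 passed the floor; 2 of these, or 3.39% against 1.71% of all genes, had a signal lower by 2-fold or more in mutant ear, 57 lay within 2-fold and 0 beyond it on the other side. Their median was -0.03. The 2 genes were Slc16a3, which exports lactate from glycolytic fibres, and Ppp1r3a, the muscle subunit that targets a phosphatase to glycogen. Slc16a3 read 8.32 in wild-type ear and 6.72 in mutant ear, 3.04-fold lower. Ppp1r3a read 7.09 and 2.83, at least 2.61-fold lower against the floor. Both calls were lost with a floor at the 75th percentile, where Slc16a3 differed by -0.97 and Ppp1r3a was below the floor on both arrays.

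Among the other glycolytic genes, 16 of 20 had a probe set and 13 lay above the floor, all within 2-fold, with 11 below 0, where 50.8% of all genes were, and a median of -0.09. Those of highest signal were Aldoa, the aldolase of muscle and most tissues, at -0.31, Hk1, a hexokinase, at -0.05 and Ldha, a lactate dehydrogenase subunit, at -0.09. The range ran from -0.58 for Tpi1, triosephosphate isomerase, to 0.49 for Aldoc, the brain aldolase. Aldoa read 11.58 and 11.28, with 80.9% of the wild-type signal kept.

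In the list for glycogen handling, 28 of 30 genes had a probe set and 25 lay above the floor. Of these, 18 were below 0 and 7 above, where 50.8% of all genes were below 0, and the median was -0.17. Gsk3a and Gsk3b, kinases that hold glycogen synthase inactive, differed by -0.03 and 0.05, and Gaa, the lysosomal glucosidase, by 0.34. Ugp2 and Pgm1, which supply the glucose donor for glycogen, read 8.56 and 7.72, and 8.85 and 8.07, in wild-type and mutant ear; both were within 2-fold and were named after their values were seen. Prkag3, a muscle subunit of the AMP-activated kinase, also named after its values were seen, read 6.62 and 5.55, at least 1.89-fold lower.

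All 8 genes above the floor in the list of phosphofructokinase regulators and gluconeogenesis were above 0 and within 2-fold, with a median of 0.18. Over all 12458 genes 50.8% were below 0, and of 11 housekeeping genes 8 were above 0 and 3 below. Pcx, pyruvate carboxylase, differed by 0.45, G6pc3 by 0.02 and Pck2 by 0.05, and the highest was Pfkfb3, which makes an activator of phosphofructokinase, at 0.52. Genes of transport and shuttles had a median of 0.06, with 9 of 13 above 0 and 4 below, where 50.8% of all genes were below 0. Gpd1, which adipocytes make in quantity, differed by 0.68, Mdh1 by 0.06 and Bsg, the partner of lactate transporters, by 0.04. Gpd2, the mitochondrial partner of Gpd1, stood at the upper end at 0.95.

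Muscle-enriched isoforms of other enzymes and transporters were set beside their counterparts, in lists that share genes with those above. Of the 13 muscle-enriched genes above the floor, 12 were below 0, against 50.8% of all 12458 genes, 2 were at least 2-fold lower (Slc16a3 and Ppp1r3a), against 1.71%, and 11 were within 2-fold. The 2 calls are those lost with the higher floor. Their median was -0.39, which became -0.18 with the floor at the 75th percentile. Gys1, the muscle glycogen synthase, read 9.13 in wild-type ear and 8.74 in mutant ear, with 76.3% of the wild-type signal kept. Slc2a4, the insulin-responsive glucose transporter of muscle and fat, named after its values were seen, read 7.88 and 7.89. Of the 13 counterparts above the floor, 8 were below 0 and 5 above, none was past 2-fold, and the median was -0.02. The lowest was Pgm1 at -0.79, further below 0 than the median of the muscle-enriched genes. Pgm1 was placed among the counterparts, and Pgm5, at -0.05, among the muscle-enriched genes, by the lists alone. Where each is made was not checked, so they give no contrast of muscle against other tissues. The counterparts also included Hk1 at -0.05, Slc2a1, the widespread glucose transporter, at 0.11 and Prkag1 at -0.01.

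**Figure D5:**
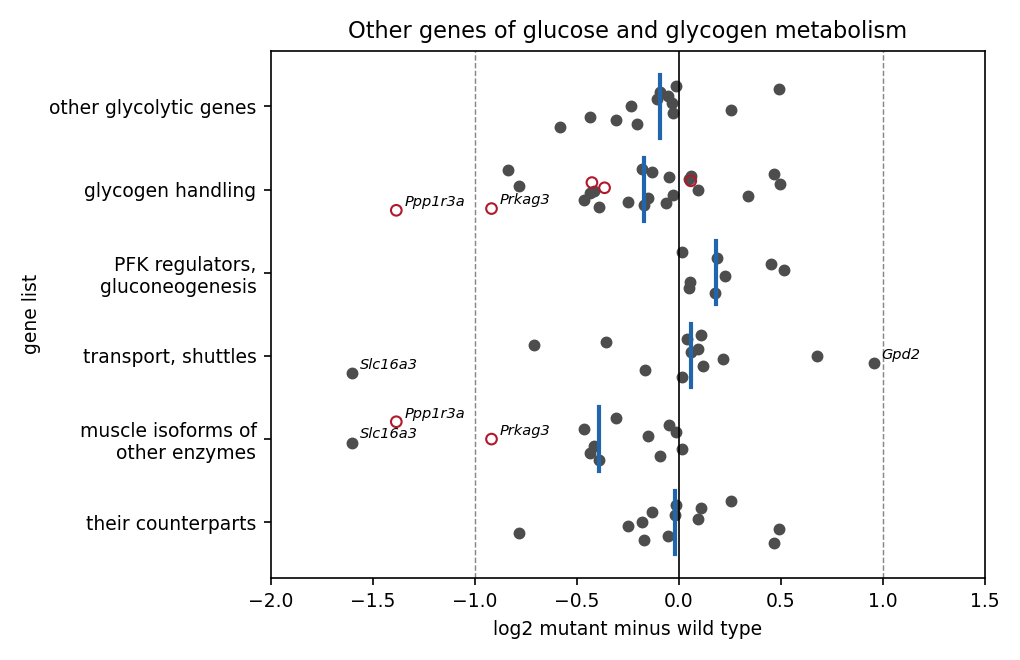
Log2 difference, mutant minus wild type, of the genes above the floor in 6 lists of glucose and glycogen metabolism; filled points were measured on both arrays, open points are bounds, blue bars are list medians and dashed lines mark 2-fold. Points past the left dashed line are Slc16a3 and Ppp1r3a, which also appear among the muscle isoforms of other enzymes, and no point passes the right dashed line.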

How the data were processed

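Per the labels, total RNA was extracted with Trizol and 6 µg was labelled as biotinylated cRNA for Affymetrix arrays. The deposited table holds log2 values of 35557 probe sets on each array; the base was inferred from their range. MAS5 is named in the submitters' processing notes, with no version. Not given in the sources used here are the authors' background correction, scaling and build. Values kept their deposited scale.

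Gene names came from the platform annotation, which pairs 21789 probe sets with 1 gene; 21698 of these had an Entrez identifier in a RefSeq gene table, and no symbol needed an update. Per gene the probe set of highest mean linear signal was used (999 of 19938 genes had several). The floor was the 50th percentile of each array. The number of arrays, 1 per genotype, limits the precision of every value.

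Named were the 10 isoforms and, per pathway list, the 3 genes of highest mean signal and those past 2-fold, with the 3 nearest genes of each muscle isoform; ends of ranges are named for their values. Members, lists and motifs were chosen with earlier results of these data known. Alternatives were scaling to equal medians (of expressed probe sets or of housekeeping genes), quantile normalization and loess (span 0.3), a floor at the 25th percentile, at the 75th or none, a pseudocount equal to the median signal, each gene's median probe set, and calls at 1.5-fold or 3-fold. The calculation was tested on simulated data, with genes well above the floor in wild-type ear. The simulated losses were smaller than those of Pygm, Eno3 and Pgam2, so losses of that size were not covered. Python 3.11.15, numpy 2.4.6, pandas 2.3.3, statsmodels 0.14.6 and matplotlib 3.10.9 were used.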

Additional observations from a re-analysis of the deposited data

How the results depend on the processing

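The count of 4 isoforms at least 2-fold lower held under all 9 alternatives and at 1.5-fold, and was 3 at 3-fold, where Pfkm was left out. Pygl was at least 2-fold higher under 7 of the 9; with the floor at the 75th percentile (0.74) and with a pseudocount of the median signal (0.85) it was not, so the count of higher isoforms was 0 under both, as it was at 3-fold. No value past 2-fold changed sign. A shift of less than 0.168, the standard deviation between probe sets of 1 gene, is counted as no change. A floor at the 75th percentile moved several values: the contrast of the muscle isoform was -3.81 for phosphorylase (-3.49 against Pygb alone), -2.51 for phosphoglycerate mutase and -3.69 for enolase against Eno2, and the median of the muscle-enriched genes of other enzymes was -0.18. Under the pseudocount these contrasts were -4.25, -3.88, -3.48 and -3.63. The mutase contrast was -4.68 both with the floor at the 25th percentile and with no floor. Over all genes the counts at least 2-fold lower and higher, 213 and 60, became 111 and 21 with that higher floor and 159 and 34 with the pseudocount, and with no floor 279 and 92. A higher floor or a pseudocount compresses differences that end near background, by construction. Of the genes in the pathway lists, 2 were at least 2-fold lower and 0 higher; the lower count became 4 with the floor at the 25th percentile and with no floor, and 0 with the floor at the 75th, where Slc16a3 was at -0.97 and Ppp1r3a had no value, and at 1.5-fold and 3-fold it was 6 and 1, with 2 higher at 1.5-fold. These pathway alternatives and the Eno2 and Pygb contrasts were added after seeing the data. The 4 scalings and the median over probe sets moved no contrast, median or count that far. No paired analysis was possible because there is 1 array per genotype and the labels give no replicate numbers. Signals at the floor give bounds, so the fold of Pgam2 and of Ppp1r3a is not measured. Leaving out a replicate was not possible with 1 array per genotype.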
